A study of Rattus norvegicus with 9 samples.

Results

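The 41 genes described here encode subunits of the receptors for glutamate, GABA and glycine, and they were read across 9 microarrays of cultured rat retinal ganglion cells, the neurons whose axons form the optic nerve. They were chosen by a rule on gene symbols, set with earlier results of these data known. A gene was included if a transcript cluster, the array's unit of measurement for a gene, carried its symbol and no other gene's symbol. This gave 41 genes of the 18166 that the array names in this way, each with 1 cluster. The study transfected retinal ganglion cells from Sprague Dawley rats at postnatal day 4 by electroporation with mCherry, wt-SetB (wild-type Set-β) or myr-SetB (myr-Set-β), and compared the RNA of the 3 groups. Every group, controls included, also received pMAX-GFP, and GFP-positive cells were sorted before culture on laminin, with RNA taken 3 days after transfection. Each group had 3 arrays, labelled as biological replicates, but the labels do not say whether these came from separate litters or cell isolations, so a p-value here weighs a difference against array-to-array spread, which may be partly technical. All groups are short-term cultures of immunopanned, electroporated and sorted cells, with no untransfected or unsorted group.

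AMPA, NMDA and kainate receptors are glutamate-gated cation channels: AMPA receptors carry most fast excitation, and NMDA receptors need the obligatory subunit encoded by Grin1. Metabotropic glutamate receptors and GABA-B receptors act through G proteins, and a working GABA-B receptor is a pair of the Gabbr1 and Gabbr2 proteins. GABA-A and glycine receptors are chloride channels, the main fast inhibitory receptors, and ganglion cells receive this inhibition from amacrine cells.

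The rule covers 52 rat genes in RefSeq, and 11 of them had no cluster of their own single symbol and were not analysed here. The values are deposited signal intensities with the same median on every array, analysed as log2. A cluster was tested where its mean over the 9 arrays reached 6.65, the median of all clusters, which kept 18343 clusters and 12 of the 41 members. Those 12 were Gria4 (of 2 AMPA genes), Grin1 and Grin3b (of 7 NMDA genes), Grik5 (of 5 kainate genes), Gabra2, Gabra4, Gabrb2, Gabrd and Gabrg3 (of 16 GABA-A genes), Gabbr1 and Gabbr2 (both GABA-B genes) and Glrb (of 4 glycine receptor genes). None of the 5 metabotropic glutamate receptor genes passed. All 12 were above the filter in the mean of each of the 3 groups. Signal on this array depends on each cluster's probes, so the size of a signal was compared between arrays of 1 gene, and between genes only by whether each passed the filter or the background mark described next.

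All 14 ganglion cell markers in the list passed the filter, and Thy1, Sncg, Nefm, Stmn2, Gap43 and Tubb3 were above the 95th percentile of 1198 odorant receptor clusters on all 9 arrays. Rbpms, Pou4f1, Nefl, Isl1 and Slc17a6 were above it on 8 arrays, Pou4f2 on 5, Pou4f3 on 1 and Nefh on 0. Odorant receptors are made in the nose and served as a mark of background. None of 16 amacrine and horizontal cell genes (15 with a cluster), 16 photoreceptor and bipolar genes (14 with a cluster) or 11 microglial genes passed that mark on all 9 arrays, nor did any of 13 endothelial, mural and fibroblast genes (10 with a cluster), and 1 of 10 Müller glia and astrocyte genes did (Clu). Some genes of those lists passed it on most arrays: the microglial genes Tyrobp on 8 and Cd68 and Lyz2 on 6, the mural gene Pdgfrb on 6 and the glycine transporter gene Slc6a9, in the amacrine list, on 5. The distance between the 10th and 90th percentile of log2 signal, a measure of the contrast of an array, was 4.29 to 4.54 in mCherry, 4.12 to 4.21 in wt-SetB and 3.82 to 4.46 in myr-SetB. It was widest on mCherry replicate 1 and narrowest on myr-SetB replicate 1.

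No receptor subunit passed the odorant 95th percentile on all 9 arrays. Gabbr1 and Gabbr2 did so on 8 arrays each, Gabra2 on 7, Grin1 and Grik5 on 3, Gria4 and Glrb on 2 and Gabrg3 on 1, and the other 33 members on none. These counts say on how many arrays a cluster passed the mark, and set no gene's level against another's. The mark was taken on each array, from 7.27 on mCherry replicate 1 to 8.19 on myr-SetB replicate 1, so the counts depend partly on where it lay. Gabrg3 passed only on the former array, and Gabbr1 and Gabbr2 failed only on the latter.

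The 250 bases before the start of Gabbr1 and Gabbr2 are shown because the GABA-B receptor needs both subunits, with the obligatory NMDA subunit gene Grin1 and the glycine receptor gene Glrb beside them. These 4 were chosen after their values were seen. Sequences are from RefSeq (GRCr8), read 5′ to 3′ on the gene's strand, and capitals mark GGGCGG (the GC box bound by Sp1) on either strand, with no overlap between matches. Gabbr1 lies at chr20:1499237-1499486 (minus strand), Gabbr2 at chr5:66083696-66083945 (minus), Grin1 at chr3:28528755-28529004 (minus) and Glrb at chr2:168505615-168505864 (minus).
Gabbr1: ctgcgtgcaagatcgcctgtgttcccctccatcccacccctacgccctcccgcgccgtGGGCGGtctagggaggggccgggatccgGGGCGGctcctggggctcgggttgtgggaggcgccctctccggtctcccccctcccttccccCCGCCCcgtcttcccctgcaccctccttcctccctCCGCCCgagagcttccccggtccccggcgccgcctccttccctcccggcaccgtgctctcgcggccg
Gabbr2: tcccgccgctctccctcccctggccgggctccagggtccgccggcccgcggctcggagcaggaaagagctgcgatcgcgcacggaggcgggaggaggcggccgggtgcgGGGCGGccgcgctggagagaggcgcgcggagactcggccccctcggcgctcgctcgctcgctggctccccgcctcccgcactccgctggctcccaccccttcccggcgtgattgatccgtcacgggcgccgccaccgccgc
Grin1: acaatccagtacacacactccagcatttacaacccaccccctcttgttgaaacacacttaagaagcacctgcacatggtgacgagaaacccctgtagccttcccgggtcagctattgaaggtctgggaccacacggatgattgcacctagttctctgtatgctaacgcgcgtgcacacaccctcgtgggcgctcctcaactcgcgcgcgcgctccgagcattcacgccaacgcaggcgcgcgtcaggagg
Glrb: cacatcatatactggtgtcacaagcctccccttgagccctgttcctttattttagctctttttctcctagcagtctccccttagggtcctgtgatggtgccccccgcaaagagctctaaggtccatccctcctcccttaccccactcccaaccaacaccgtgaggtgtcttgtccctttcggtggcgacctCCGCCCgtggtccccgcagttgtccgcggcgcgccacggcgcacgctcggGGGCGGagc

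The Gabbr1 stretch held 4 GC boxes and was 75.6% G and C, and the Gabbr2 stretch held 1 and was 78.8%. The Glrb stretch (61.2%) held 2, the nearer ending 3 bases before the start, and the Grin1 stretch (57.6%) held none. Of the 41 members, 32 had a promoter in the table, and 12 of those held a GC box, against 30.5% of all 33469 promoters. Among the 12 tested members, 10 had a promoter and 7 of these held a GC box (Gabbr1, Gabbr2, Gabra4, Gabrd, Gabrg3, Glrb and Grik5). The median G and C content of these 10 was 71.2%, against 51.2% over all promoters, and a GC box is made of these bases. A match describes these letters and shows no binding.

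**Figure D1:**
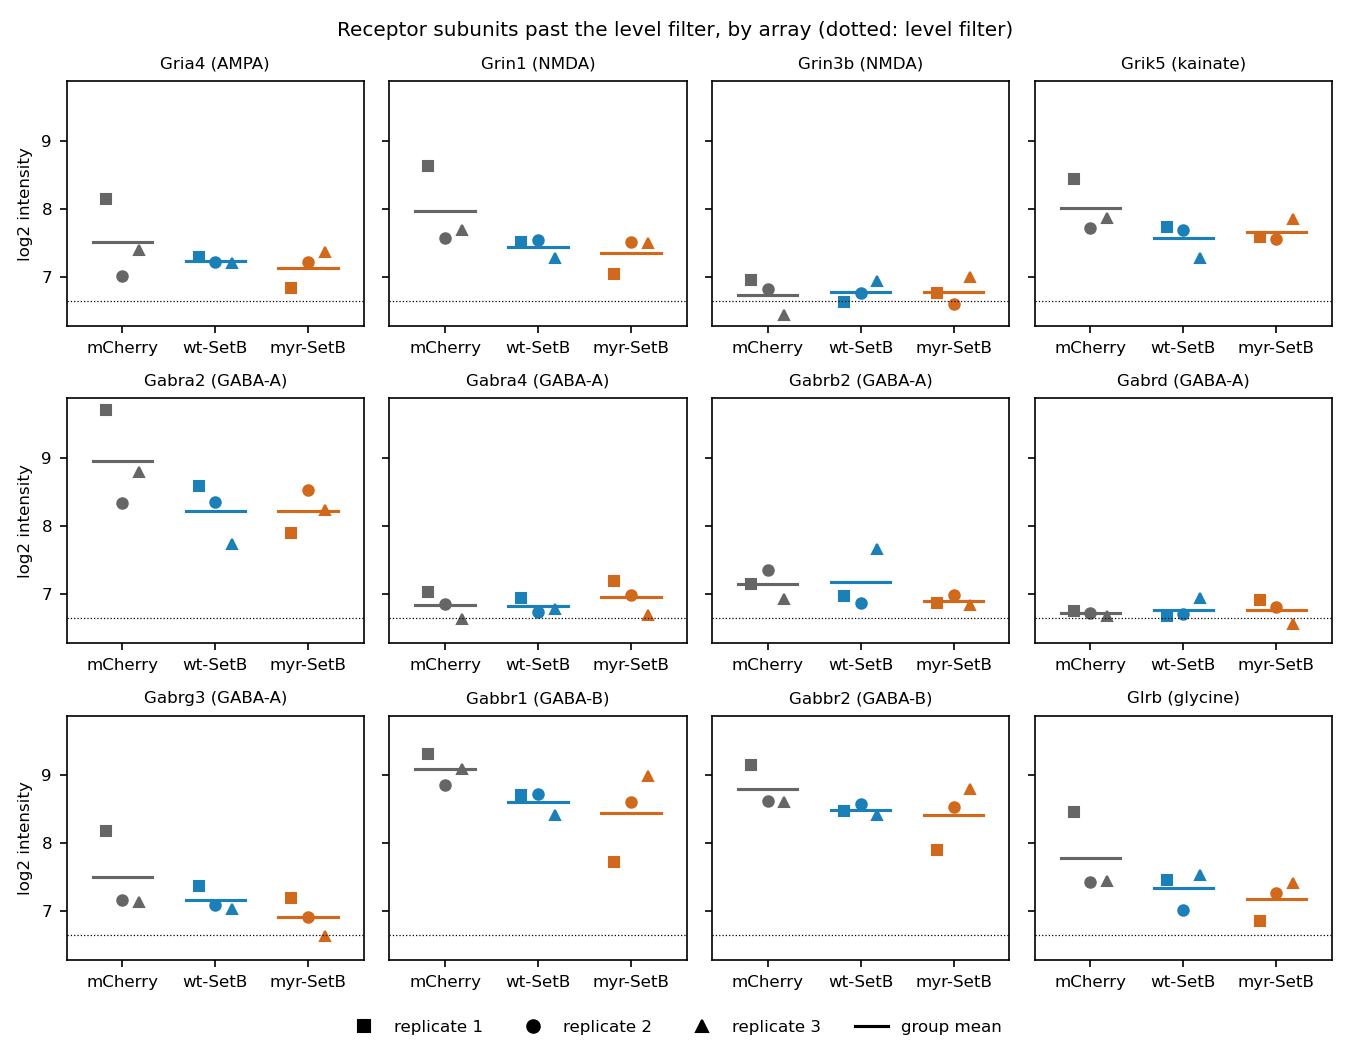
Log2 intensity of the 12 receptor subunits past the level filter on each array (squares, circles and triangles are replicates 1, 2 and 3, bars are group means, and the dotted line is the filter at 6.65). In 8 of the 12 panels the mCherry square is the highest of the 9 points, as in Grin1 (8.63) and Gabra2 (9.70).

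Among the glutamate receptor genes, Grin1 had log2 intensities of 8.63, 7.58 and 7.69 on mCherry replicates 1 to 3, 7.51, 7.54 and 7.28 in wt-SetB, and 7.05, 7.51 and 7.50 in myr-SetB. All 6 Set-β arrays lay below all 3 mCherry arrays, with mCherry replicate 2 and wt-SetB replicate 2 nearly level. The mean was 7.96 ± 0.58 in mCherry, 7.44 ± 0.14 in wt-SetB and 7.36 ± 0.27 in myr-SetB (SD, n = 3 each). In limma the difference from mCherry was -0.52 ± 0.29 (SE) for wt-SetB and -0.61 ± 0.29 for myr-SetB, with an adjusted p of 0.447 in both. Without mCherry replicate 1 these became -0.19 and -0.28.

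Gria4, an AMPA subunit, was 8.14, 7.02 and 7.39 in mCherry, 7.29, 7.22 and 7.21 in wt-SetB, and 6.84, 7.22 and 7.36 in myr-SetB. The groups overlapped, and 1 array, mCherry replicate 1, stood above the rest. Its differences from mCherry were -0.28 ± 0.28 and -0.38 ± 0.28, which became 0.03 and -0.07 without that array (limma adjusted p = 0.578 and 0.488 with all arrays).

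Grik5, which encodes a kainate subunit that works only together with others of its family, gave 8.43, 7.72 and 7.87 in mCherry, 7.73, 7.69 and 7.28 in wt-SetB, and 7.59, 7.56 and 7.85 in myr-SetB. Again the highest value was on mCherry replicate 1, and the groups overlapped. The differences from mCherry were -0.44 ± 0.23 for wt-SetB and -0.34 ± 0.23 for myr-SetB (limma adjusted p = 0.447 and 0.463), or -0.23 and -0.13 without mCherry replicate 1. Grin3b, an NMDA subunit that lowers calcium flow, ran from 6.44 to 7.00 over the 9 arrays, across the filter, with differences of 0.04 and 0.05 (SE 0.20).

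Of the GABA-A genes, Gabra2, which encodes an alpha subunit of synaptic receptors, had the widest spread over arrays of the 12. It was 9.70, 8.33 and 8.79 in mCherry, 8.58, 8.35 and 7.73 in wt-SetB, and 7.89, 8.52 and 8.23 in myr-SetB. mCherry replicates 1 and 3 were the highest arrays, while mCherry replicate 2 lay among the Set-β arrays. The group means were 8.94 ± 0.70, 8.22 ± 0.44 and 8.21 ± 0.32 (SD, n = 3 each), and both differences from mCherry were -0.73 ± 0.37 (limma adjusted p = 0.447). The 95% intervals ran from -1.56 to 0.11 for wt-SetB and from -1.56 to 0.10 for myr-SetB. Both differences were -0.35 without mCherry replicate 1.

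Gabrg3, a gamma subunit gene, was 8.18, 7.16 and 7.14 in mCherry, 7.37, 7.09 and 7.03 in wt-SetB, and 7.19, 6.91 and 6.64 in myr-SetB. Replicate 1 was the highest array of each group. Its difference was -0.32 ± 0.30 for wt-SetB and -0.58 ± 0.30 for myr-SetB (limma adjusted p = 0.548 and 0.447), and 0.02 and -0.23 without mCherry replicate 1.

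The remaining 3 tested GABA-A genes did not have their high point on mCherry replicate 1. Gabra4, an alpha subunit gene, was 7.03, 6.86 and 6.64 in mCherry, 6.94, 6.74 and 6.78 in wt-SetB, and 7.20, 6.99 and 6.70 in myr-SetB. Gabrb2, a beta subunit gene, was 7.15, 7.36 and 6.93 in mCherry, 6.98, 6.87 and 7.66 in wt-SetB, and 6.87, 6.99 and 6.83 in myr-SetB. The groups overlapped in both genes, and the highest Gabrb2 value was on wt-SetB replicate 3. Gabra4 differed from mCherry by -0.02 ± 0.19 in wt-SetB (0.00 after quantile or cyclic loess normalization) and by 0.12 ± 0.19 in myr-SetB. For Gabrb2 the differences were 0.02 ± 0.23 and -0.25 ± 0.23. Gabrd, whose delta subunit serves receptors outside synapses, ran from 6.55 to 6.94, with differences of 0.06 and 0.04 (SE 0.16).

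Several GABA-A genes lie side by side in the rat genome, and some neighbours fell on different sides of the level filter. In the RefSeq gene order, Gabrb1, Gabra4, Gabra2 and Gabrg1 follow one another with 1 other protein-coding gene in between, and only Gabra2 and Gabra4 of these passed the filter. The neighbours Gabrg3 and Gabra5, and Gabra6 and Gabrb2, were likewise split, with Gabrg3 and Gabrb2 tested and Gabra5 and Gabra6 below the filter.

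For the GABA-B receptor, Gabbr1 encodes the subunit that binds GABA. It was 9.30, 8.85 and 9.08 in mCherry, 8.69, 8.71 and 8.41 in wt-SetB, and 7.72, 8.60 and 8.98 in myr-SetB. Every wt-SetB array was below every mCherry array, while myr-SetB had the widest spread, with replicate 1 lowest and replicate 3 among the mCherry values. The means were 9.08 ± 0.22, 8.60 ± 0.17 and 8.44 ± 0.65 (SD, n = 3 each). The difference was -0.47 ± 0.30 for wt-SetB (limma adjusted p = 0.461) and -0.64 ± 0.30 for myr-SetB (0.447), a ratio of 0.722 and 0.642. Quantile and cyclic loess normalization reduced these to -0.12 and -0.13 for wt-SetB (log2), and to -0.36 and -0.24 for myr-SetB. Without myr-SetB replicate 1 the myr-SetB difference was -0.28, and without mCherry replicate 1 the wt-SetB difference was -0.36.

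Gabbr2, which couples the receptor to its G protein, was 9.13, 8.61 and 8.60 in mCherry, 8.47, 8.57 and 8.41 in wt-SetB, and 7.90, 8.53 and 8.79 in myr-SetB. Both GABA-B genes thus had their highest value on mCherry replicate 1 and their lowest on myr-SetB replicate 1. The differences were -0.30 ± 0.25 and -0.37 ± 0.25 (limma adjusted p = 0.526 and 0.468). The wt-SetB difference turned to 0.04 after quantile and 0.03 after cyclic loess normalization, and the myr-SetB difference moved to -0.09 and -0.0025. Without myr-SetB replicate 1 the latter was -0.12 before such normalization, and without mCherry replicate 1 the wt-SetB difference was -0.12.

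Glrb encodes the beta subunit that ties glycine receptors to the scaffold gephyrin. It was 8.46, 7.42 and 7.44 in mCherry, 7.46, 7.01 and 7.53 in wt-SetB, and 6.86, 7.26 and 7.41 in myr-SetB. All myr-SetB arrays were below all mCherry arrays, the closest pair nearly level, and wt-SetB overlapped mCherry. The difference was -0.44 ± 0.31 for wt-SetB and -0.60 ± 0.31 for myr-SetB (limma adjusted p = 0.476 and 0.447), and -0.10 and -0.26 without mCherry replicate 1.

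The first comparison asks what wild-type Set-β changed. limma called 0 of the 12 subunits, and 0 of all 18343 clusters (0%), at an adjusted p under 0.05, and the smallest adjusted p was 0.447. At an unadjusted p under 0.05 it called 0 of the 12 and 1865 of all clusters (10.2%). The difference was below 0 in 9 of the 12 subunits, against 65.5% of all clusters, and Gabbr2 and Gabra4 of these 9 changed sign with the normalization as given above. All 3 wt-SetB arrays were below all 3 mCherry arrays in Gabbr1, Gabbr2 and Grin1, 3 of 12, against 26.4% of all clusters, and no subunit was higher on all 3 (7.31% of all clusters). The median difference of the 12 was -0.31, beside -0.18 over all clusters tested, and 8 of 12 lay below that median (50% of all clusters by construction). After quantile normalization, which moved the median of all clusters to -0.03, the 12 had a median of -0.12.

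myr-SetB was set against the same 3 mCherry arrays, so the values of the 2 comparisons are not independent of each other. limma again called 0 of 12 subunits and 0 of 18343 clusters (0%) at an adjusted p under 0.05 (smallest 0.332), and at an unadjusted p 0 of 12 and 1796 clusters (9.79%). The difference was below 0 in 9 of 12 subunits (63.9% of all clusters). Glrb and Grin1 were lower on all 3 myr-SetB arrays than on any mCherry array, 2 of 12 (6.85% of all clusters), and none was higher (4.55%). The median over the 12 was -0.38, beside -0.16 over all clusters, and 9 of 12 lay below the latter (50%). After quantile normalization the medians were -0.23 and -0.03. No subunit was thus called lower. Even for a called difference, less RNA from these genes per cell and fewer cells that express them cannot be told apart in bulk RNA.

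Set against each other, the 2 Set-β forms had a median difference nearer 0 than either had from mCherry, though for Gabrb2 and Gabra4 the difference between the forms was the largest of the 3. limma called 0 of 12 subunits and 0 clusters (0%) at an adjusted p under 0.05 (smallest 0.9998), and 0 of 12 and 208 clusters (1.13%) at an unadjusted p. No subunit separated the groups in either direction, against 1.76% of all clusters lower and 2.63% higher in myr-SetB. The median was -0.08, beside 0.01 over all clusters, with 9 of 12 below 0 (48.5% of all clusters) and 10 below the median of all (50%). Of the 12, Grin3b, Gabra2 and Gabrd, all near 0, changed sign under quantile or cyclic loess normalization. Gabrb2 (-0.27 ± 0.23) and Gabrg3 (-0.25 ± 0.30) were the farthest below 0 and Gabra4 (0.14 ± 0.19) the farthest above. The intervals remain wide: that of Gabra2 ran from -0.84 to 0.83, so a difference of that size between the 2 forms was not resolved.

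Normalization also reduced other differences from mCherry by more than 1.5 times in at least 1 of the 2 methods. After quantile and cyclic loess normalization, the wt-SetB difference of Gabra2 was -0.42 and -0.41 and its myr-SetB difference -0.44 and -0.38. Grik5 was at -0.22 and -0.23 for wt-SetB and at -0.13 and -0.14 for myr-SetB. For wt-SetB, Grin1 was at -0.31 and -0.34, Gria4 at -0.12 and -0.17, Gabrg3 at -0.18 and -0.24 and Glrb at -0.26 and -0.30. All of these stayed below 0.

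**Figure D2:**
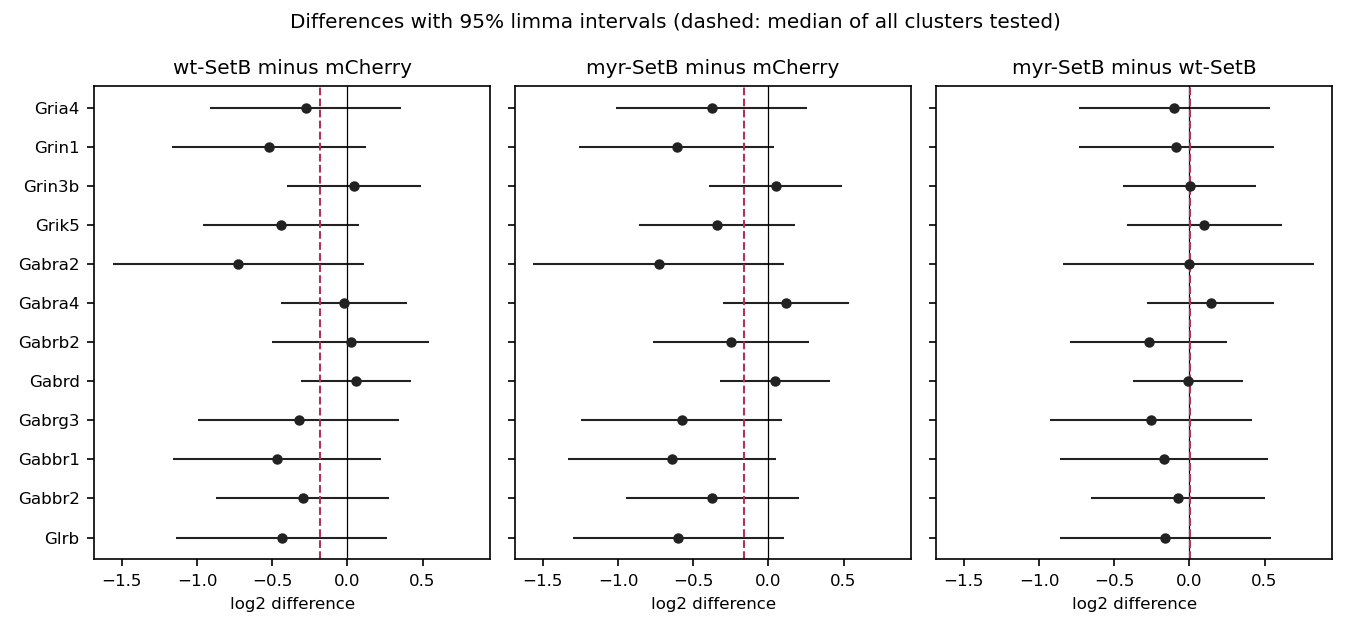
Log2 difference between group means for the 12 subunits, with 95% limma intervals, in the 3 comparisons (dashed line: median of all clusters tested, at -0.18, -0.16 and 0.01). Every interval crosses 0.

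Much of the median difference from mCherry went with a single array in wt-SetB, and less of it in myr-SetB. mCherry replicate 1 was the highest of the 9 arrays in 8 of the 12 subunits (Gria4, Grin1, Grik5, Gabra2, Gabrg3, Gabbr1, Gabbr2 and Glrb), against 29.7% of all clusters tested, and in the same number, against 21.8%, after quantile normalization. On that array the median subunit was 0.64 above its own mean over the 9 arrays, while the median cluster was 0.15 above. myr-SetB replicate 1 was the lowest array in 5 of the 12 (Gria4, Grin1, Gabbr1, Gabbr2 and Glrb), against 36.9% of all clusters. There the median subunit was 0.33 below its mean and the median cluster 0.17 below.

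With mCherry replicate 1 left out, the median difference of the 12 was -0.04 for wt-SetB and -0.22 for myr-SetB. In that setting 4 of the 12 lay below the median of all clusters for wt-SetB and 8 for myr-SetB. Without mCherry replicate 2 the median difference was -0.51 and -0.55, and 3 subunits had an unadjusted p under 0.05 in each comparison: Grik5, Gabra2 and Grin1 for wt-SetB, and Gabra2, Grin1 and Gria4 for myr-SetB, where 15.2% and 14.9% of all clusters did. Without mCherry replicate 3 it was -0.43 and -0.45. With myr-SetB replicate 1 left out it was -0.26 for myr-SetB and 0.04 for myr-SetB minus wt-SetB. With both left out together, a choice made after seeing the data, it was -0.04 for wt-SetB and -0.09 for myr-SetB, and Gabbr2 in myr-SetB was at 0.06. The summed intensity of the 14 ganglion cell markers ran from 11359 to 19641 in mCherry, 7380 to 12844 in wt-SetB and 7758 to 13941 in myr-SetB, highest on mCherry replicate 1. The summed endothelial, mural and fibroblast markers were 787 to 2096 in mCherry, 856 to 1573 in wt-SetB and 976 to 1818 in myr-SetB, and lowest in each group on replicate 1. The microglial sum was also lowest in each group on replicate 1, at 1384, 1387 and 1393, and ran up to 2079, 2348 and 2176. Single genes did not all follow these sums. In the ganglion cell list, Rbpms and Nefh were highest on mCherry replicate 3, and all others on mCherry replicate 1. Cdh5, in the endothelial list, was highest on replicate 1 in each group, and the microglial genes Cx3cr1, C1qa and C1qc were highest on replicate 1 within myr-SetB. The Müller glia and astrocyte sum ran from 1407 to 1950 in mCherry, 1063 to 1366 in wt-SetB and 1116 to 1334 in myr-SetB. It was highest on mCherry replicate 1 and lowest on wt-SetB replicate 3, which was also the lowest array for the ganglion cell sum. In the Müller glia and astrocyte list, however, only Clu was highest on mCherry replicate 1. Slc1a3, Aqp4 and Sox2 had their lowest value of all arrays there. The amacrine and horizontal cell sum was 1575 to 1943, 1409 to 1594 and 1583 to 1671, and the photoreceptor and bipolar sum 1090 to 1224, 1175 to 1255 and 1091 to 1129. The part of array contrast and of these marker levels in the subunit differences was not tested.

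**Figure D3:**
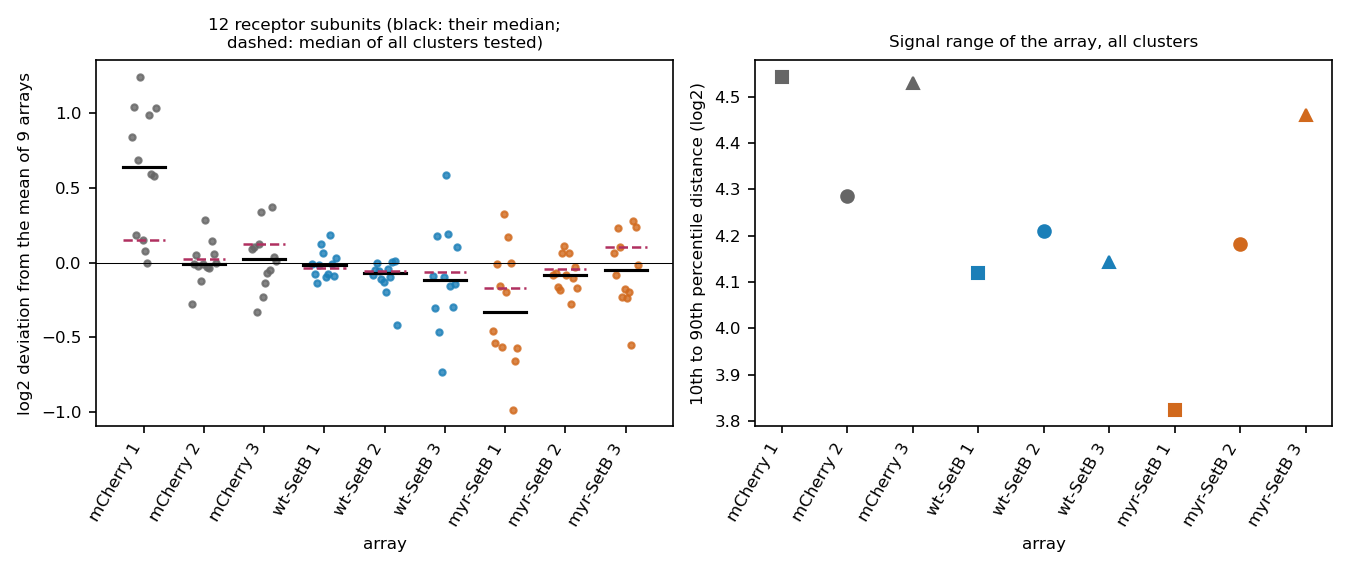
Left, deviation of each of the 12 subunits from its mean over 9 arrays, with their median (black) and that of all clusters tested (dashed); right, the distance between the 10th and 90th percentile of log2 signal on each array. mCherry replicate 1 has a subunit median of 0.64 and the widest range (4.54), and myr-SetB replicate 1 has -0.33 and the narrowest (3.82).

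Partners of these receptors were read from a list of 64 genes (auxiliary subunits, scaffolds, transmitter enzymes and transporters, chloride transporters), of which 56 had a cluster and 45 were tested. limma called 0 of the 45 at an adjusted p under 0.05 in any comparison. At an unadjusted p it called 1 lower and 0 higher in wt-SetB (7.13% and 3.04% of all clusters), 8 lower and 0 higher in myr-SetB (6.92% and 2.87%), and 0 lower and 0 higher in myr-SetB minus wt-SetB (0.567% each). Of those 8, 6 belonged to the 18 tested genes of scaffolds and trafficking. Gephyrin (Gphn), which anchors glycine and GABA-A receptors, was 7.83 ± 0.35 in mCherry and 7.00 ± 0.46 in myr-SetB, a difference of -0.83 ± 0.26 (limma adjusted p = 0.447). Cacng2, the AMPA receptor partner stargazin, differed by -1.02 ± 0.35, and Nsf, an ATPase of vesicle fusion that also handles AMPA receptors, by -0.90 ± 0.34 (limma adjusted p = 0.447 for both). Nlgn1, a neuroligin of excitatory synapses, differed by -0.65 ± 0.21. In wt-SetB the smallest p-values were those of Gabarapl1, a relative of the GABA-A receptor-associated protein (-0.98 ± 0.43), the AMPA receptor partners Cnih2 (-1.36 ± 0.62) and Olfm1 (-0.61 ± 0.30), and Pick1, which binds AMPA subunits (-0.57 ± 0.28), each with a limma adjusted p of 0.447. Cnih2 had an SD of 1.49 among the mCherry arrays against 0.13 in wt-SetB, and its difference was -0.51 without mCherry replicate 1. In wt-SetB without that array, Gabarapl1 was at -0.69, Olfm1 at -0.40 and Pick1 at -0.43, and in myr-SetB Gphn was at -0.75, Cacng2 at -0.70, Nsf at -0.68 and Nlgn1 at -0.44. Quantile normalization gave -0.65 for Gabarapl1, -0.30 for Olfm1 and -0.28 for Pick1 in wt-SetB. Normalized values of the other partners named are not given here, and the partner counts come from the main fit only. The median of the 45 was -0.34 for wt-SetB, -0.40 for myr-SetB and -0.04 between the Set-β forms, beside -0.18, -0.16 and 0.01 over all clusters.

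The 29 members below the filter had values from 4.34 to 6.97. None reached the odorant 95th percentile on any array, 18 were above the odorant median on all 9 arrays, and Gria3, Gabra6, Gabrg1 and Gabrp were below it on all 9. They include the glutamate-binding NMDA subunits Grin2a to Grin2d, Grik1 to Grik4, the metabotropic genes Grm2, Grm3, Grm5, Grm6 and Grm8, the rho subunit genes Gabrr1 to Gabrr3, and the glycine receptor alpha genes Glra1, Glra2 and Glra4. In a fit of all 36685 clusters, limma called 0 of the 29 at an adjusted p under 0.05. At an unadjusted p it called 0 in wt-SetB (8.29% of all clusters), 1 in myr-SetB (8.14%) and 1 in myr-SetB minus wt-SetB (2.04%). Their median difference was -0.01 for wt-SetB and -0.01 for myr-SetB.

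The 1 gene in both cases was Glra4, a glycine receptor alpha subunit gene. It was 5.41, 5.32 and 5.27 in mCherry, 5.45, 5.39 and 5.63 in wt-SetB, and 5.70, 5.89 and 5.91 in myr-SetB. All myr-SetB arrays were above all others, by 0.50 ± 0.14 over mCherry (limma unadjusted p = 0.00602, adjusted 0.560) and by 0.34 over wt-SetB (unadjusted 0.0363, adjusted close to its upper limit), but the cluster was below the odorant median on 5 of 9 arrays. Grik2, a kainate subunit gene, was 6.37, 6.27 and 6.13 in mCherry, 5.93, 6.07 and 5.95 in wt-SetB, and 5.79, 6.07 and 6.21 in myr-SetB. In it, and in Grin2d and Gabrg1, the wt-SetB arrays were all below mCherry, 3 of 29 beside 17.7% of all clusters, and 0 of 29 were higher on all 3 (7.12%). Grm6, the receptor of ON bipolar cells, was 6.16 ± 0.14 in mCherry, 6.36 ± 0.07 in wt-SetB and 6.36 ± 0.02 in myr-SetB (SD, n = 3 each), with the myr-SetB arrays all above mCherry. It and Glra4 were the 2 of 29 that were higher on all 3 myr-SetB arrays (5.45% of all clusters), and 0 were lower (5.77%). Between the Set-β forms, Gabrr1 was lower (2.33% of all clusters) and Glra4 higher (3.94%) on all 3 myr-SetB arrays.

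**Figure D4:**
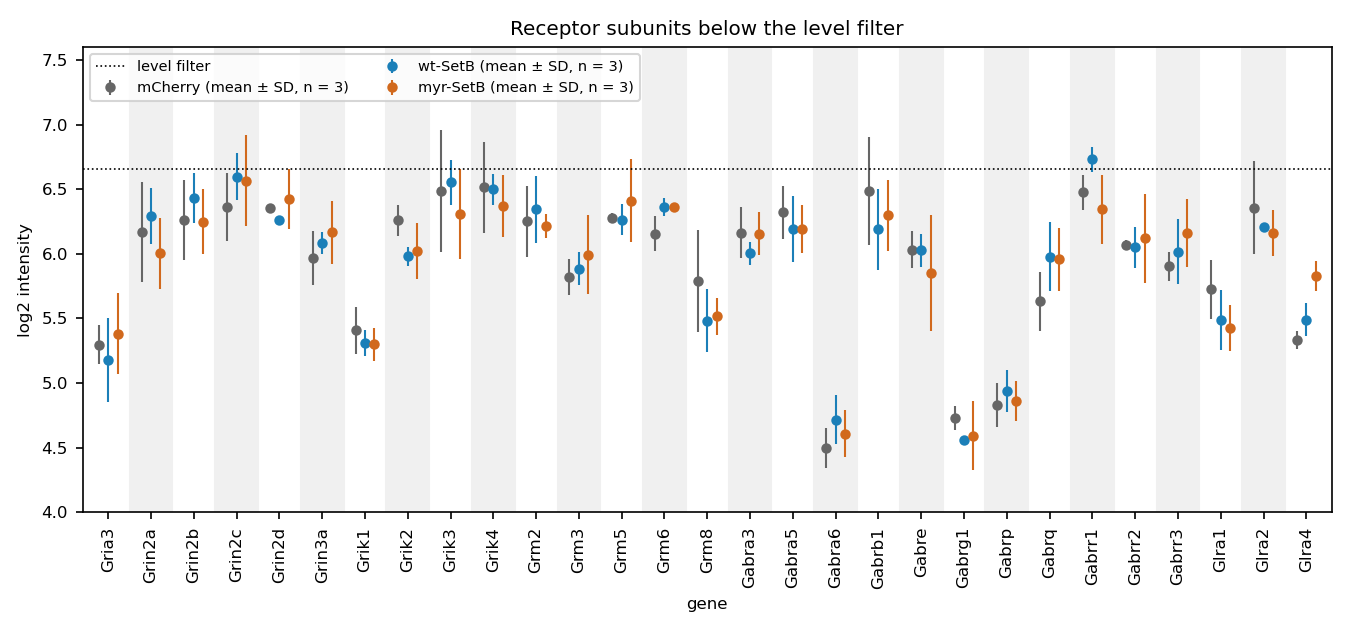
Mean log2 intensity with SD (n = 3) of the 29 subunits below the level filter (dotted line at 6.65), by group. Glra4 is highest in myr-SetB, with arrays at 5.70, 5.89 and 5.91.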

How the data were processed

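RNA of 9 samples (3 per group) was hybridised to arrays. Per the submitters' processing notes, the authors used Affymetrix Expression Console and RMA. Versions and further settings: not given in the sources used here. The deposited values are linear signal intensities, from 5.25 to 26331.44, with the same median on each array. Gene symbols came from the platform annotation: of 36685 clusters, 18511 had 1 symbol, 575 several and 17599 none, and 18394 matched RefSeq by Entrez identifier, with 0 renamed. Members were clusters of 1 matching symbol.

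Intensities were taken as log2 with no further normalization. Clusters with a mean of at least 6.65 were fitted together in limma 3.58.1 (R 4.3.3; lmFit and eBayes over all 9 arrays, 6 residual and 2.82 prior degrees of freedom), with Benjamini-Hochberg adjustment over all 18343. Tests are two-sided. The number of arrays limits the precision. The fit was also run on simulated arrays with independent noise for each cluster. These had no array-wide shifts, so that run does not bear on such shifts in the real arrays.

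Values on all arrays are given for members past an adjusted p of 0.05, the 6 tested members of smallest p in each comparison, and a list of core subunits that passed the filter. Up to 4 partner genes per comparison were named by smallest p. Glra4, Grik2, Grm6 and the promoters were singled out after their values were seen. Members and lists were chosen with earlier results of these data known. In all, 19 alternatives were planned and 1 was added.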

Additional observations from a re-analysis of the deposited data

How the results depend on the processing

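No subunit passed an adjusted p of 0.05 in any comparison or alternative except Gabbr1 in myr-SetB minus mCherry with array weights (-0.46, limma adjusted p = 0.0345). That setting also called 5903 clusters there and 1270 in myr-SetB minus wt-SetB, but the estimation of weights stopped before its tolerance was met. It gave myr-SetB replicate 2 a weight of 165.006, against 0.151 and 0.179 for replicates 1 and 3. The myr-SetB mean in that fit therefore rested almost wholly on 1 array, and its p-values and calls cannot be relied on. In wt-SetB minus mCherry, 1 subunit (Gabbr1) had an unadjusted p under 0.05 when only the 2 groups were fitted (23.2% of all clusters) and 1 (Gabbr1) with array weights (34.2%). In myr-SetB minus mCherry it was 1 with no filter (Glra4; 8.14% of all clusters), 1 (Gabrg3) with the replicate block (9.56%), 1 (Gabrg3) with the replicate block and quantile normalization (8.48%), and 3 with array weights (Grik5, Gabrg3 and Gabbr1; 47%). In myr-SetB minus wt-SetB it was 1 with no filter (Glra4; 2.04%) and 1 with array weights (Gabra4; 24.6%). Subunits below the median of all clusters numbered 19, 23 and 26 of 41 with no filter and 4, 4 and 3 of 5 with a filter at the 75th percentile, in the order wt-SetB, myr-SetB and myr-SetB minus wt-SetB, where other numbers of subunits were counted. Without mCherry replicate 1 and myr-SetB replicate 1 together, it was 4 of 12 for wt-SetB.

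Signs changed as follows, and the cause was not tested. For wt-SetB minus mCherry, Gabra4 was 0.0031 with quantile, 0.0016 with cyclic loess and 0.0031 with the replicate block and quantile normalization, and 0.0419 with array weights, and Gabbr2 was 0.0387, 0.0332 and 0.0387 in the first 3. With array weights, Grin3b was -0.0082 for myr-SetB minus mCherry. For myr-SetB minus wt-SetB, Grin3b was -0.0102 with quantile, -0.0208 with cyclic loess, -0.0102 with the replicate block and quantile normalization and -0.1817 with array weights. Gabrd was 0.0048, 0.0048 with the block and quantile normalization, and 0.0516 with weights, and Gabra2 was 0.0293 with cyclic loess and 0.2854 with weights. Weights also gave 0.0496 for Grin1, -0.0290 for Grik5, 0.0242 for Gabbr2 and 0.0107 for Glrb. Without both replicate 1 arrays, wt-SetB minus mCherry was 0.0332 for Gria4, 0.0689 for Gabra4 and 0.0188 for Gabrg3, and myr-SetB minus mCherry was 0.0842 for Gria4, -0.0175 for Gabrd and 0.0568 for Gabbr2. In the same setting myr-SetB minus wt-SetB was 0.0510 for Gria4, 0.0656 for Grin1, 0.1561 for Gabra2, 0.1886 for Gabbr1 and 0.1776 for Gabbr2.

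Leaving out each array in turn gave 0 to 3 subunits with an unadjusted p under 0.05 in wt-SetB minus mCherry and 0 to 3 in myr-SetB minus mCherry, and 4 to 9 below the median of all clusters in the first. For wt-SetB minus mCherry, Gria4 ran from -0.5264 to 0.0332, Grin3b from -0.1052 to 0.1534, Gabra4 from -0.1233 to 0.0689, Gabrb2 from -0.2222 to 0.1698, Gabrd from -0.0265 to 0.1045 and Gabrg3 from -0.5012 to 0.0188. For myr-SetB minus mCherry, Grin3b ran from -0.1024 to 0.1563 and Gabrd from -0.0333 to 0.1477. For myr-SetB minus wt-SetB, the ranges were -0.2109 to 0.0510 for Gria4, -0.1689 to 0.0656 for Grin1, -0.1025 to 0.0945 for Grin3b, -0.0425 to 0.1820 for Grik5, -0.2502 to 0.1763 for Gabra2, -0.0893 to 0.0917 for Gabrd, -0.4423 to 0.1886 for Gabbr1 and -0.2683 to 0.1776 for Gabbr2. Deviations from the group mean were compared between arrays of different groups. For same-numbered arrays the correlations were 0.022 to 0.383 for wt-SetB with mCherry, -0.069 to 0.243 for myr-SetB with mCherry and 0.040 to 0.257 between the Set-β forms. For different-numbered arrays they were -0.370 to 0.160, -0.398 to 0.365 and -0.231 to 0.142. Same-numbered pairs were thus mostly positive, and what they share was not tested. The labels name no pairing, so the main fit used none. With the replicate block, 0 subunits passed an adjusted p in limma, and the median difference was the same, at -0.31, -0.38 and -0.08. Of the 41 subunits, 29 were below the filter and above the odorant 95th percentile on no array.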
